A study of Mus musculus with 16 samples.

Results

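The metalloproteinases and their tissue inhibitors were followed in mouse small intestine with and without epithelial HNF4A, a nuclear receptor that drives genes of enterocytes and other gut epithelial cells. The set holds every probe of the deposited array table whose gene symbol names a matrix metalloproteinase (Mmp), a tissue inhibitor of metalloproteinases (Timp), an Adam or an Adamts or Adamts-like protein. These are 99 of the 25697 probes and stand for 69 of its 18138 gene symbols. The 8 Hnf4aWT arrays come from Cre-negative mice, given as loxP-flanked (Hnf4a fl/fl) by the protocol and as Hnf4a+/+ by the genotype label. The 8 Hnf4aKO arrays come from Hnf4a fl/fl mice that also carry VillinCreERT2, a tamoxifen-inducible Cre under the villin promoter. All 16 mice, wildtype included, were gavaged with 1 mg tamoxifen on each of 5 days, irradiated with 14 Gy to the whole body 3 weeks later and killed 96 h after that. The villin promoter limits deletion to epithelium, so the stromal and immune cells of both groups keep the gene. Cre status goes with genotype, and no unirradiated tissue was measured.

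Matrix metalloproteinases are zinc endopeptidases that are made as inactive zymogens and cut collagens, proteoglycans and other matrix proteins as well as growth factors and cytokines. Timp proteins bind their active site. Adam proteins are membrane-anchored relatives, several of which shed ectodomains of receptors and ligands, and Adamts proteins are secreted relatives that process procollagens and cut proteoglycans. In the gut most secreted Mmp genes are known to be expressed by fibroblasts and macrophages of damaged mucosa, whereas Mmp7 is made by mouse Paneth cells and activates their defensins.

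A run of 10 Mmp genes lies side by side on mouse chromosome 9, and 4 of these 10 genes rose in the knockout. In the RefSeq gene table (assembly GRCm38.p6) their order is Mmp13, Mmp12, Mmp1b, Mmp3, Mmp1a, Mmp10, Mmp8, Mmp27, Mmp20 and Mmp7, with 0 other protein-coding genes between them. The promoters of several of them are textbook targets of AP-1, the dimer of Fos and Jun proteins, so the stretches before the starts of the 4 genes that rose and of 2 neighbours that did not pass the test are shown here. Each is 110 bases long, ends at the base before the start of transcription in RefSeq (GRCm38.p6, plus strand) and is written 5′ to 3′, with the AP-1 letters TGANTCA in capitals. They lie at chr9:7445712-7445821 (Mmp3), chr9:7502232-7502341 (Mmp10), chr9:7272404-7272513 (Mmp13), chr9:7691980-7692089 (Mmp7), chr9:7347264-7347373 (Mmp12) and chr9:7464031-7464140 (Mmp1a).
Mmp3: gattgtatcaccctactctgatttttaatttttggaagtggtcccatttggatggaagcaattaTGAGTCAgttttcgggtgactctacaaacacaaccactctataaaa
Mmp10: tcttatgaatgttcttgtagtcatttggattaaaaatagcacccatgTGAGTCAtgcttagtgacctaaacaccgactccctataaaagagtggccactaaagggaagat
Mmp13: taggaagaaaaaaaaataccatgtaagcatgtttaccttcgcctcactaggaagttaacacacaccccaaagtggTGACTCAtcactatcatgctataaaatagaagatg
Mmp7: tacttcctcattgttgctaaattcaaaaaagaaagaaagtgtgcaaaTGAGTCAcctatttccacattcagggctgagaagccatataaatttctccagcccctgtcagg
Mmp12: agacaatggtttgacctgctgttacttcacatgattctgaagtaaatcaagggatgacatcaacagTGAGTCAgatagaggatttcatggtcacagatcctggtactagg
Mmp1a: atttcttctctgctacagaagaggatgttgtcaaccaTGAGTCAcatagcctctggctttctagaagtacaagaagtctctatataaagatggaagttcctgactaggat

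The letters begin 46 bases before the start in Mmp3, 63 in Mmp10, 35 in Mmp13, 63 in Mmp7, 44 in Mmp12 and 73 in Mmp1a. Mmp7 and Mmp12 have 2 promoters each in RefSeq, and only the one shown for each held the letters. The motif reads the same on both strands. In windows from 250 bases before to 50 after each start, 8 of the 10 genes of the cluster held it, against 7.81% of 32851 mouse promoters. Neighbouring paralogues share ancestry and are not independent of each other. The cluster genes that held the letters include Mmp12 and Mmp1a, which did not pass the test, and Mmp1b, whose probe was detected on 0 arrays. Of the 42 genes of the whole set with a promoter in the RefSeq table, 11 held the letters. They were in 4 of the 10 genes that rose, 0 of 1 that fell, 2 of 13 that did not pass and 5 of 18 not tested. Outside the cluster only Adam1b, Adam25 and Adam29 held them, and none of these genes reached the test. Letters bound by HNF4A, searched on both strands as CAAAGTCCA (0.475% of all promoters) and CAAAGGTCA (0.478%), were in 0 of the 42 genes' windows. A match or its absence in these windows describes letters only.

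The arrays measured total RNA of the whole tissue, and 46.9% to 53.1% of probes were detected per array (detection p under 0.05). Precision is limited by how many arrays there are. The Hnf4a probe lay between 11.91 and 12.50 on the wildtype arrays (median 12.24) and between 10.17 and 10.71 on the knockout arrays (median 10.50). All knockout arrays were below all wildtype arrays, a log2 difference of -1.75 ± 0.10 (SE; adjusted p = 1.68e-09). Here and below, values are background-corrected, quantile-normalized log2 intensities, differences are knockout minus wildtype, n is 8 per group, and every adjusted p is from limma's moderated test with Benjamini-Hochberg adjustment over all 13460 tested probes, with a threshold of 0.05. A probe was tested if it was detected on at least 6 of the 16 arrays.

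Some arrays stood apart in values that touch these genes. The wildtype arrays 2 and 5 were the lowest pair of their group for 12 of the 23 tested Mmp and Timp probes. They also had the lowest mean over 4 Paneth cell markers (12.59 and 12.85, against 13.33 to 14.15 on the other wildtype arrays). Of these markers Lyz1 hardly varied among wildtype arrays (SD 0.09), while Pla2g2a (SD 1.43) and Ang4 (SD 1.08) varied most. Knockout array 1 had the highest mean of 7 adipocyte markers (12.34), and knockout array 6 the lowest of its group (6.77). Knockout array 6 was also lowest of its group for smooth muscle (8.92) and fibroblast markers (9.34). Values without these arrays are given beside several of the genes below.

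Across the set, metalloproteinase genes that passed the test were mostly higher in the knockout. Of the 99 probes, 39 were detected on 0 arrays and 16 on 1 to 5 arrays, and 44 probes of 34 genes were tested. Of these, 17 probes of 12 genes rose, 2 probes of 2 genes fell and 25 did not pass. Among those that rose, both Adam8 probes and the Adam28 probe reached the test only through their detections on knockout arrays. Over all tested probes 29.4% passed the threshold, 12.4% as higher and 17% as lower. The median log2 difference of the 44 probes was 0.46, against -0.04 over all tested probes, and 36 of the 44 were above 0. With each array scaled to its median instead of quantiles, the median of all probes was -0.11, 14 members rose and 2 fell, and 31.7% of all calls were higher in place of 42.1%. Without wildtype arrays 2 and 5, 14 probes rose and 2 fell. Without knockout arrays 1 and 6, 19 rose and 2 fell, and without knockout array 6 alone 22 rose.

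**Figure D1:**
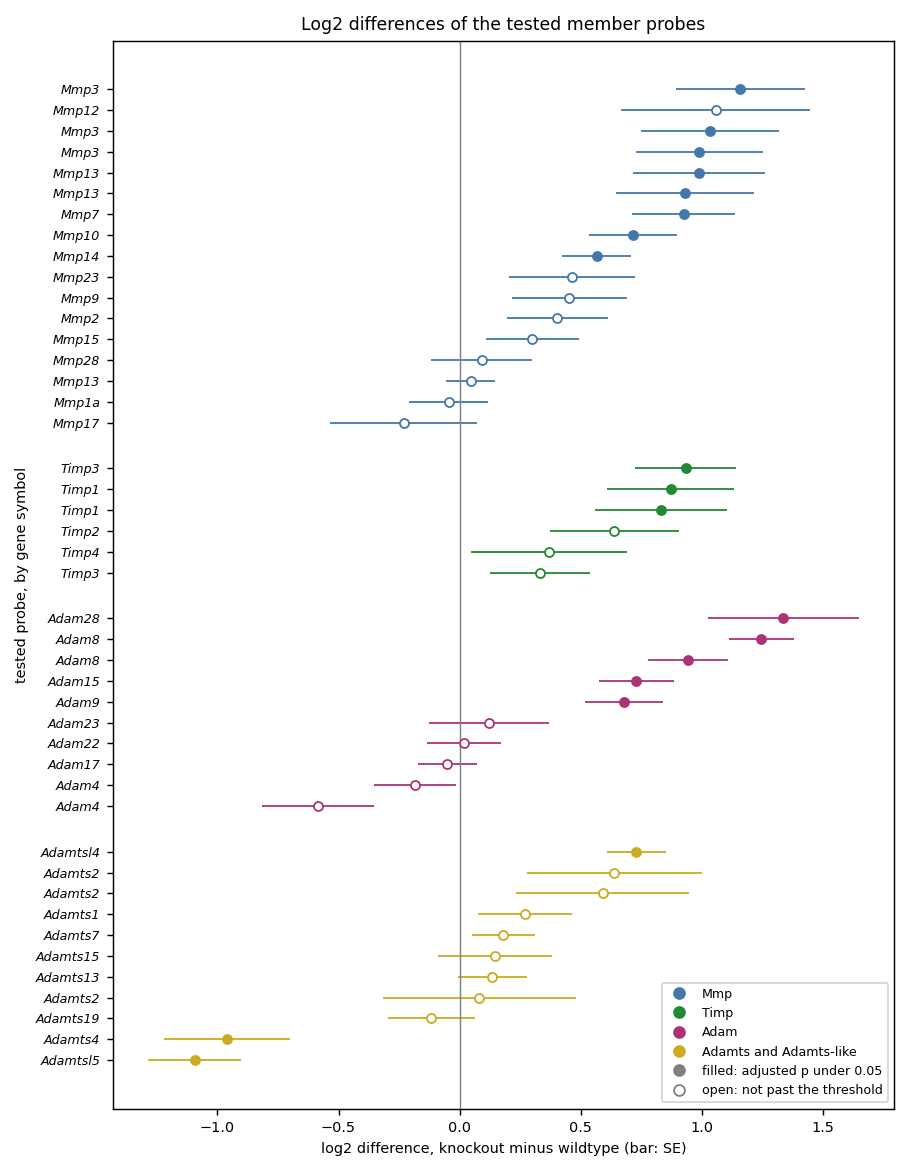
Log2 difference (knockout minus wildtype, x axis; bars are SE) of the 44 tested probes, 1 row per probe, coloured by family. Filled points passed the threshold: 8 Mmp, 3 Timp and 5 Adam probes lie right of 0, and of the Adamts and Adamts-like probes 1 lies right and 2 lie left.

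The Mmp family held 8 of the 17 probes that rose. Of its 29 probes, 17 (13 genes) were tested, 8 probes of 5 genes rose, 0 fell and 9 did not pass. The genes that rose were Mmp3, Mmp10, Mmp13, Mmp7 and Mmp14.

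Mmp3, stromelysin 1, a broad matrix protease that also activates other Mmp zymogens, had 3 tested probes and all rose. Its probe with the smallest p (ILMN_2899041) lay between 8.19 and 10.04 on the wildtype arrays (median 9.67) and between 9.75 and 11.17 on the knockout arrays (median 10.60). The groups overlapped: 7 of 8 knockout arrays were above the highest wildtype array, the exception was knockout array 2, and wildtype arrays 2 (8.19) and 5 (8.84) were the lowest of all. The log2 difference was 1.16 ± 0.27 (2.23-fold, adjusted p = 0.00364), with 1.41 on the first slide of 8 arrays and 0.91 on the other. The other 2 probes differed by 1.03 ± 0.28 (adjusted p = 0.0114) and 0.99 ± 0.26 (adjusted p = 0.00895). Without wildtype arrays 2 and 5 the 3 differences were 0.85, 0.71 and 0.71 (adjusted p = 0.0114, 0.0395 and 0.0402).

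Mmp10 (ILMN_2619952), stromelysin 2, a close relative of Mmp3 that is known from epithelium at wound edges and from macrophages, ranged from 11.39 to 12.53 in wildtype (median 12.34) and from 12.46 to 13.31 in knockout tissue (median 12.89). On 6 knockout arrays it was above every wildtype array, and 7 wildtype arrays were below every knockout array. Wildtype arrays 2 and 5 (11.39 and 11.54) were far below the other 6, which began at 12.28. The log2 difference was 0.71 ± 0.18 (1.64-fold, adjusted p = 0.00707), with 0.65 and 0.77 on the 2 slides, and 0.48 (adjusted p = 0.0228) without wildtype arrays 2 and 5.

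Mmp13, the main interstitial collagenase of the mouse, had 3 tested probes that disagreed. The brightest (ILMN_2737685) ranged from 9.86 to 12.00 in wildtype (median 11.43) and from 11.35 to 12.90 in knockout tissue (median 12.13). All but 1 of the 8 knockout arrays were above the highest wildtype array, and wildtype arrays 5 (9.86) and 2 (10.63) were again lowest. It rose by 0.93 ± 0.29 on the log2 scale (1.91-fold, adjusted p = 0.0205). Without those 2 arrays the difference was 0.58 and the call was lost (adjusted p = 0.0674), as it was with median scaling. A dimmer probe (ILMN_1249336) rose by 0.99 ± 0.27 (adjusted p = 0.0112), and by 0.69 (adjusted p = 0.0478) without the 2 arrays. The third, detected on 10 of 16 arrays, gave 0.05 ± 0.10 (adjusted p = 0.772).

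Mmp7 (ILMN_2659804), matrilysin, ranged from 9.29 to 11.14 in wildtype (median 10.61) and from 10.99 to 11.67 in knockout tissue (median 11.40). The top 5 knockout arrays were above the highest wildtype array and 7 wildtype arrays were below the lowest knockout array. Wildtype arrays 5 (9.29) and 2 (9.78) were lowest. The log2 difference was 0.93 ± 0.21 (1.90-fold, adjusted p = 0.00380), with 0.95 and 0.90 on the slides, and 0.64 (adjusted p = 0.00647) without those 2 arrays. Among the 4 other Paneth cell markers tested, Itln1 (0.78 ± 0.18, adjusted p = 0.00355) and Ang4 (1.19 ± 0.35, adjusted p = 0.0174) rose, Pla2g2a fell (-1.71 ± 0.47, adjusted p = 0.0111), and Lyz1, a lysozyme of these cells, gave -0.01 ± 0.07 (adjusted p = 0.909). The summed linear intensity of the 4 ranged from 39052 to 76240 on wildtype and from 54310 to 70896 on knockout arrays. Lyz1 had the highest mean of the 4 in both groups and so weighs much in this sum. The part of the sum in the Mmp7 difference was not tested.

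Mmp14 (ILMN_1240726), the membrane-type 1 enzyme that activates the zymogen of Mmp2 at the cell surface, ranged from 11.19 to 12.38 in wildtype (median 11.83) and from 12.02 to 12.79 in knockout tissue (median 12.41). The top 4 knockout arrays were above the highest wildtype array, which was replicate 1, and 6 wildtype arrays were below the lowest knockout array. It rose by 0.57 ± 0.14 (1.48-fold, adjusted p = 0.00649). With median or 75th percentile scaling it no longer passed.

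The other tested Mmp probes did not pass. Mmp12, the macrophage elastase, ranged from 7.18 to 10.40 in wildtype (median 9.50) and from 9.46 to 11.13 in knockout tissue (median 10.45). The groups overlapped widely, with 4 wildtype arrays below the lowest knockout array and 4 knockout arrays above the highest wildtype array. Its log2 difference of 1.06 ± 0.39 had an adjusted p of 0.0501. Wildtype arrays 5 (7.18) and 2 (8.19) were the lowest, and without them the difference was 0.53 (adjusted p = 0.156). It passed in 9 of the alternatives, among them leaving out wildtype array 3, 6 or 8 (adjusted p = 0.0287, 0.0376 and 0.0317) or knockout array 2 (0.0384).

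The gelatinases, which cut denatured collagen and basement membrane collagen, did not pass either. Mmp2, the fibroblast gelatinase, ranged from 11.44 to 12.48 (median 11.90) in wildtype and from 11.33 to 13.17 (median 12.29) in knockout tissue. Knockout arrays held both extremes, array 1 the highest and array 6 the lowest. The difference was 0.40 ± 0.21 (adjusted p = 0.158), without knockout array 6 it was 0.54 (adjusted p = 0.0308), and without knockout array 1 it was 0.28 (adjusted p = 0.287). Mmp9, the gelatinase of neutrophils and macrophages, ranged from 8.03 to 9.92 (median 9.38) and from 9.23 to 10.43 (median 9.57), with a difference of 0.45 ± 0.24 (adjusted p = 0.163), or 0.17 (adjusted p = 0.552) without wildtype arrays 2 and 5. All but 2 knockout arrays lay within the wildtype range.

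Mmp23 gave 0.46 ± 0.26 (adjusted p = 0.191), and its difference was 0.63 (adjusted p = 0.0406) without knockout array 6 and 0.27 (adjusted p = 0.346) without knockout array 1. Mmp15, the membrane-type 2 enzyme, gave 0.30 ± 0.19 (adjusted p = 0.251), or 0.13 (adjusted p = 0.641) without wildtype arrays 2 and 5. The second collagenase of the array, Mmp1a, gave -0.05 ± 0.16 (adjusted p = 0.867) although its neighbours on either side, Mmp3 and Mmp10, rose. Mmp28, epilysin, gave 0.09 ± 0.21 (adjusted p = 0.779) and Mmp17, a membrane-type enzyme with a lipid anchor, -0.23 ± 0.30 (adjusted p = 0.606). The neutrophil collagenase Mmp8 was detected on 0 arrays, as were Mmp1b, Mmp16, Mmp20, Mmp21 and Mmp27, while Mmp11, Mmp19 and Mmp24 were detected on 1 to 4 arrays and were not tested.

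**Figure D2:**
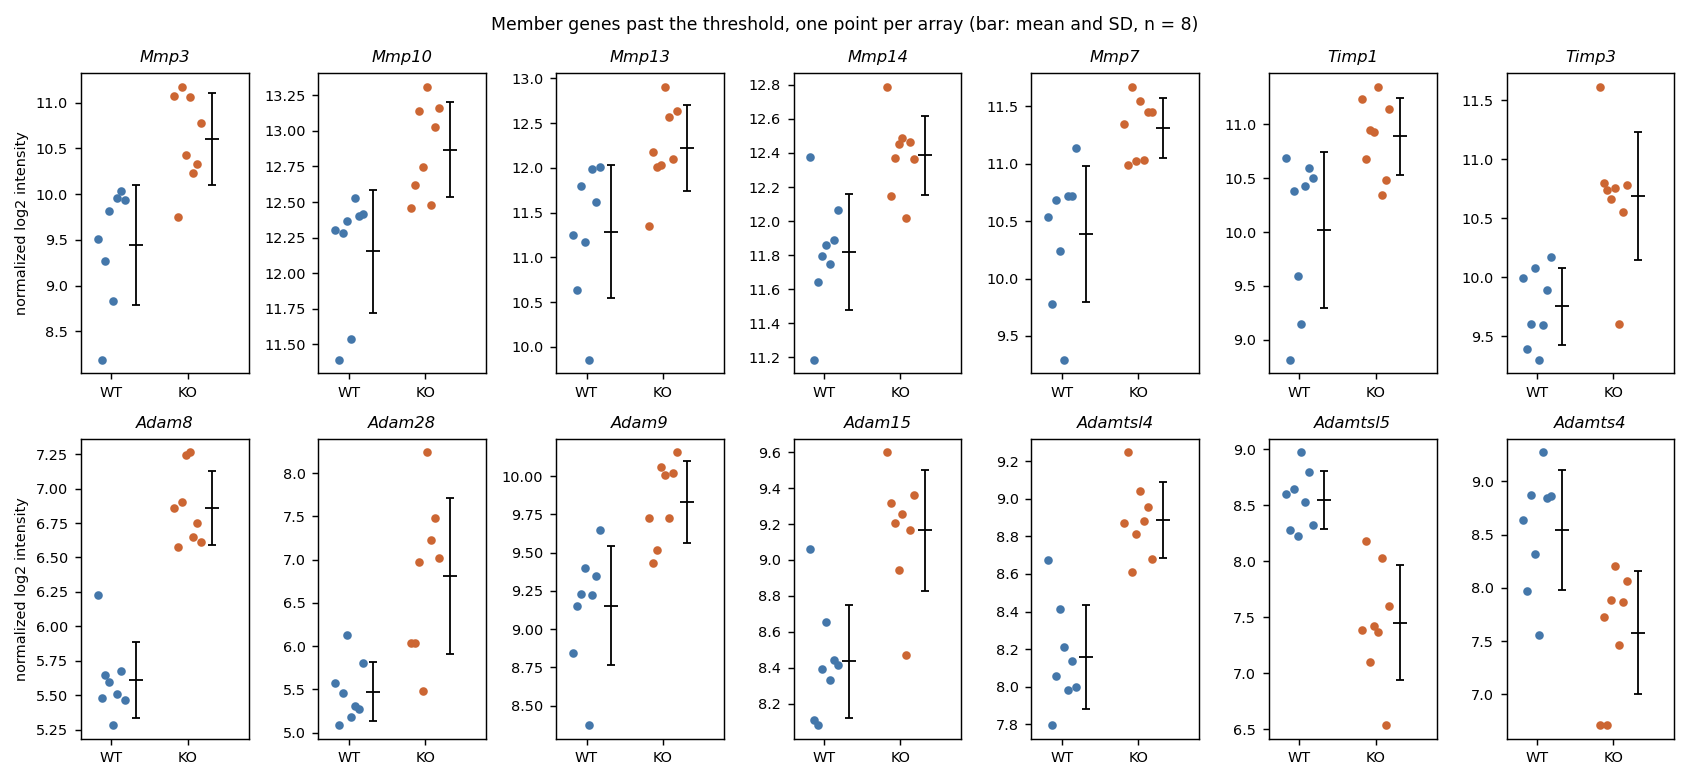
Normalized log2 intensity (y axis, a separate scale in each panel that does not start at 0) on each wildtype (WT) and knockout (KO) array for the 14 genes with a probe past the threshold, using the brightest such probe; bars are mean and SD, n = 8. The first 12 panels are higher and the last 2, Adamtsl5 and Adamts4, lower in the knockout, and in Adam8 and Adamtsl5 the groups do not overlap.

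Inhibitors rose beside the proteases. All 6 Timp probes were tested, 3 probes of 2 genes rose and 0 fell. Timp1, the secreted inhibitor that is induced in inflamed and injured tissue, had 2 probes. The one with the smaller p (ILMN_3103896) ranged from 8.81 to 10.69 in wildtype (median 10.41) and from 10.35 to 11.35 in knockout tissue (median 10.94). Wildtype arrays 2 (8.81), 5 (9.15) and 4 (9.59) were below every knockout array, and 5 knockout arrays were above every wildtype array. The difference was 0.87 ± 0.26 (1.83-fold, adjusted p = 0.0191). The other probe rose by 0.83 ± 0.27 (adjusted p = 0.0289). Without wildtype arrays 2 and 5 the differences were 0.53 and 0.48 and neither probe passed (adjusted p = 0.0615 and 0.0954). The second also failed when wildtype array 4 or 5 or knockout array 5 or 8 was left out.

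Timp3, which is held in the matrix and also inhibits Adam17 and the aggrecanases, ranged on its bright probe (ILMN_2741096) from 9.30 to 10.17 in wildtype (median 9.75) and from 9.60 to 11.61 in knockout tissue (median 10.75). In 7 knockout arrays it was above every wildtype array, and knockout array 6 (9.60) was within the wildtype range. The difference was 0.93 ± 0.21 (1.91-fold, adjusted p = 0.00298). A dim probe, detected on 12 of 16 arrays, gave 0.33 ± 0.21 (adjusted p = 0.243).

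Timp2, which inhibits most Mmp proteins and also serves as the adaptor in Mmp2 activation by Mmp14, ranged from 9.92 to 10.76 in wildtype (median 10.41) and from 9.59 to 12.30 in knockout tissue (median 11.00). In 7 knockout arrays it was above every wildtype array, and in the other, array 6, below them all. The log2 difference of 0.64 ± 0.27 did not pass (adjusted p = 0.0796). Without knockout array 6 it was 0.84 (adjusted p = 0.00531), and without knockout array 1 it was 0.46 (adjusted p = 0.139). Leaving out both arrays, a setting chosen after the data were seen, gave 0.67 (adjusted p = 0.00459). Timp4, an inhibitor whose known sites include adipose tissue, was detected on 6 of 16 arrays and gave 0.37 ± 0.32 (adjusted p = 0.417). Knockout array 1, highest in adipocyte markers, held its highest value, 8.16, and the other knockout arrays reached 6.14. Without it the difference was 0.06 (adjusted p = 0.835).

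**Figure D3:**
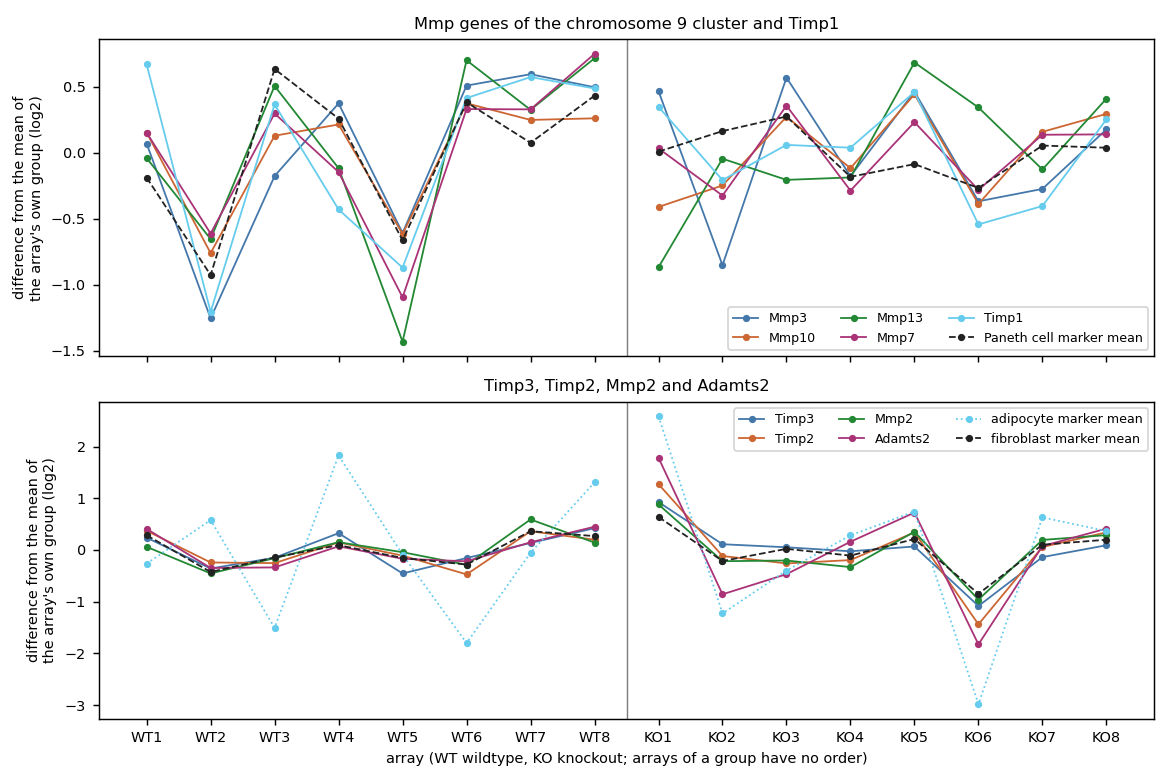
Log2 deviation of each array from the mean of its own group (y axis) for 5 genes with the Paneth cell marker mean (top) and 4 genes with the adipocyte and fibroblast marker means (bottom); lines join the arrays of a group, which have no order. Wildtype arrays 2 and 5 are low in all lines of the top panel, and knockout arrays 1 and 6 are the highest and the lowest of their group in all lines of the bottom panel.

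Within groups the members moved in sets. On the brightest tested probe of each gene and after the group means were removed, Mmp3 correlated across the 16 arrays most with Mmp10 (Pearson r = 0.77), Timp1 (0.77) and Mmp7 (0.75). The gene most like Timp3 was Timp2 (0.90), followed by Adamts2 (0.84) and Mmp2 (0.81). These describe 16 arrays that share the tissue mix and the arrays that stood apart. For Adam8 the most alike were Mmp14 (0.53), Timp1 (0.53) and Mmp28 (0.42), and for Adamtsl4 they were Mmp1a (0.50), Adam15 (0.48) and Adam17 (0.44). Neither gene had a partner as close. The Adam8 probe was detected on 1 of 8 wildtype arrays and the Mmp28 probe on 9 of 16 arrays, so signal near background limits the Adam8 values.

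Of the Adam genes, 10 probes of 8 genes out of 42 probes and 26 genes were tested, 5 probes of 4 genes rose and 0 fell. Adam8, a sheddase of granulocytes, macrophages and dendritic cells, had the smallest p of the whole set. On its first probe (ILMN_1224005) the wildtype arrays ranged from 5.28 to 6.23 (median 5.55) and the knockout arrays from 6.58 to 7.26 (median 6.81). The groups did not overlap, and the probe was detected on 1 of 8 wildtype and 8 of 8 knockout arrays. It thus reached the test only through the group where it was higher, and its p-value and separation are not independent of that filter. The log2 difference was 1.25 ± 0.13 (2.37-fold, adjusted p = 5.71e-06), with 1.16 and 1.33 on the slides. The second probe (ILMN_2756613) was not detected on any wildtype array and on all 8 knockout arrays, so it too reached the test only through the knockout group. It was at least 1.39-fold higher in the knockout, counted from the lowest detected signal of each wildtype array or the probe's own where that was higher (fitted log2 difference 0.94 ± 0.16, adjusted p = 4.95e-04), and here too the groups did not overlap.

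Adam28 (ILMN_2664739), an Adam of lymphocytes that is also known from epithelium, ranged from 5.09 to 6.12 in wildtype (median 5.38; detected on 1 of 8 arrays) and from 5.48 to 8.24 in knockout tissue (median 6.995; 7 of 8). The probe reached the test only through its knockout detections. It was above every wildtype array on 5 knockout arrays, and the knockout arrays spread widely (SD 0.90). The difference was 1.34 ± 0.31 (adjusted p = 0.00400), with 0.57 on one slide and 2.10 on the other. Whether the slides differ was not tested. The gene's other probes (ILMN_1240484, ILMN_1259520 and ILMN_1229895) were detected on 0 arrays and were not tested. Of 3 tested lymphocyte markers 0 rose and Cd3e, a T cell receptor chain, fell by 0.58 on the log2 scale (adjusted p = 0.0184), while Cd8a and Ms4a1 were detected on 0 arrays.

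A pair of widely expressed membrane proteases rose. Adam15 (ILMN_3139103) ranged from 8.08 to 9.06 in wildtype (median 8.40) and from 8.47 to 9.60 in knockout tissue (median 9.23), a difference of 0.73 ± 0.16 (1.66-fold, adjusted p = 0.00220). Of the knockout arrays, 6 were above the highest wildtype array, which was replicate 1. A second Adam15 probe (ILMN_2718144) was detected on 0 arrays and was not tested. Adam9 (ILMN_2649502) ranged from 8.37 to 9.65 (median 9.23) and from 9.43 to 10.16 (median 9.87), a difference of 0.68 ± 0.16 (1.60-fold, adjusted p = 0.00434). Of the wildtype arrays, 7 were below every knockout array.

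The best known sheddases gave no call. Adam17, which releases TNF and ligands of the EGF receptor, ranged from 9.03 to 9.78 in wildtype (median 9.35) and from 8.91 to 9.51 in knockout tissue (median 9.38). The groups overlapped throughout, and the difference was -0.05 ± 0.12 (adjusted p = 0.789). Its relative Adam10, the sheddase of Notch and E-cadherin, has 1 probe, which was detected on 0 arrays. The neural members Adam22 and Adam23, which lack protease activity, gave 0.02 ± 0.15 and 0.12 ± 0.25 (adjusted p = 0.949 and 0.750). Adam4, a gene of the testis group and the only tested one of its 15 genes, gave -0.59 ± 0.23 (adjusted p = 0.0657) and -0.18 ± 0.17 (adjusted p = 0.445) on 2 probes. The first passed without wildtype array 1 (adjusted p = 0.0308) or knockout array 2 (adjusted p = 0.0474).

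Both probes that fell belong to the Adamts group. Of 22 probes, 11 (9 genes) were tested, 1 rose and 2 fell. These counts lie near the shares over all tested probes, of which 12.4% rose and 17% fell. Adamts4 (ILMN_1230152), aggrecanase 1, which cuts aggrecan and versican, ranged from 7.55 to 9.27 in wildtype (median 8.74) and from 6.71 to 8.21 in knockout tissue (median 7.80). Of the wildtype arrays, 6 were above every knockout array, and 3 knockout arrays were below every wildtype array. The difference was -0.96 ± 0.26 (1.95-fold lower, adjusted p = 0.0106), with -1.19 and -0.73 on the slides.

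Adamtsl5 and Adamtsl4 belong to the Adamts-like proteins, which lack the protease domain and bind the extracellular matrix, Adamtsl4 at fibrillin microfibrils. Adamtsl5 (ILMN_2692399) ranged from 8.23 to 8.97 in wildtype (median 8.57) and from 6.54 to 8.18 in knockout tissue (median 7.41). All knockout arrays were below all wildtype arrays, and the difference was -1.09 ± 0.19 (2.13-fold lower, adjusted p = 4.93e-04). Adamtsl4 (ILMN_2459899) moved the other way, from a range of 7.80 to 8.67 (median 8.10) to a range of 8.61 to 9.25 (median 8.87). In each group 7 arrays lay outside the range of the other group, and the difference was 0.73 ± 0.12 (1.66-fold, adjusted p = 3.42e-04).

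Adamts2, the procollagen N-proteinase, spread widely among knockout arrays. On its brightest probe wildtype ranged from 9.13 to 9.92 (median 9.42) and knockout from 8.29 to 11.89 (median 10.23), with array 1 at the top and array 6 at the bottom. The 3 probes gave 0.64 ± 0.36, 0.59 ± 0.36 and 0.08 ± 0.40 (adjusted p = 0.196, 0.230 and 0.906). Without knockout array 6 the first 2 were 0.90 (adjusted p = 0.0272) and 0.84 (adjusted p = 0.0426). Without knockout array 1 they were 0.39 (adjusted p = 0.357) and 0.32 (adjusted p = 0.424). With both arrays left out, the first was 0.65 (adjusted p = 0.0369) and the second did not pass. The other 5 tested genes, Adamts1, Adamts7, Adamts13, Adamts15 and Adamts19, had differences between -0.12 and 0.27 and did not pass.

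Grouped by the cell type each gene is best known from, increases lay among stromal, leukocyte, epithelial and widely expressed members and among genes with no source assigned. Of 19 tested probes of stromal genes 9 rose and 1, Adamts4, fell, with a median log2 difference of 0.64. Of 5 leukocyte probes 3 rose, both Adam8 probes and Adam28, which reached the test only through their knockout detections. The leukocyte probes detected on all arrays, Mmp9 and Mmp12, did not pass. Of 2 epithelial probes 1 (Mmp7) rose, and of 3 probes of widely expressed genes 2. Of 10 probes of genes with no source assigned, 2 (Mmp10 and Adamtsl4) rose and 1 (Adamtsl5) fell, with a median of 0.14. None of the 2 germ line, 2 neural or 1 adipocyte probes passed. Over all tested probes 12.4% rose and 17% fell, and groups of 1 to 5 probes are too small to set beside these shares. These sources are textbook background, since the arrays measured whole tissue, in which more or fewer cells of a type and more or less RNA per cell cannot be told apart.

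Markers of several cell types rose as well, and their counts stand beside the 12.4% of all tested probes that rose. The lists in which 1 of 7 rose lie near that share. Of 11 macrophage and dendritic cell markers 10 rose. Itgax among them (detected on 1 wildtype and 8 knockout arrays) reached the test only through its knockout detections. Aif1 had the smallest p (0.68 ± 0.11, adjusted p = 2.92e-04) and Mrc1, the mannose receptor, the largest difference (1.25 ± 0.26, adjusted p = 0.00174). Their summed intensity ranged from 10638 to 17522 on wildtype and from 17551 to 50282 on knockout arrays. The sums here and below take in every marker of a list on the array, also those not tested. They add linear intensities, so the brightest genes weigh most, as Dcn does among fibroblast markers (mean 13.38 in wildtype). Of 10 endothelial markers 6 rose (summed 3000 to 5052 against 4606 to 8569). Cdh5 among them (detected on 2 wildtype and 7 knockout arrays) also reached the test only through its knockout detections. Of 9 fibroblast markers 5 rose (11805 to 21046 against 14560 to 33931), and Postn was detected on 0 arrays. Of the 7 smooth muscle markers 0 passed (23870 to 52993 against 11085 to 53370), and of 7 pan-epithelial markers 1, Krt20, rose (53671 to 65958 against 53219 to 69125). Of 4 tested neutrophil markers 0 passed (728 to 1738 against 1029 to 1640), and Mpo and Camp were detected on 0 arrays. One of 7 adipocyte markers, Cidec, rose (1523 to 18713 against 1940 to 57403). One of 4 enteric neuron and glia markers, Ret, rose (430 to 587 against 693 to 1411). The part of these shifts in the metalloproteinase differences was not tested.

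**Figure D4:**
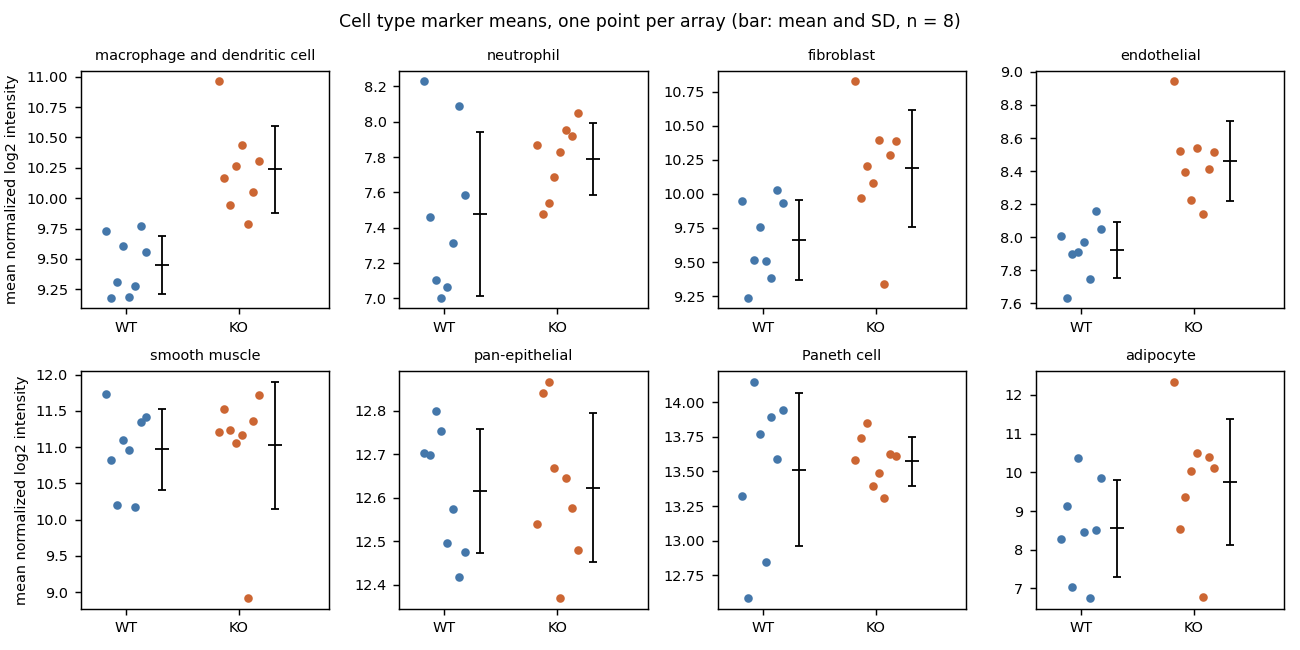
Mean normalized log2 intensity (y axis, separate scales that do not start at 0) of the tested markers of 8 cell types on each array; bars are mean and SD, n = 8. The macrophage and dendritic cell means of the knockout arrays begin at 9.79 where the wildtype arrays end at 9.77. The means of all other cell types shown overlap between the groups, the endothelial ones narrowly (wildtype to 8.16, knockout from 8.14).

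The partners of these enzymes were read from 6 lists, whose counts stand beside the 29.4% of all tested probes that passed, 12.4% as higher. Several of the lists lie near those shares. Of 4 tested genes of the plasminogen system, which activates Mmp zymogens through plasmin, Plaur, the urokinase receptor, rose (0.82 ± 0.22, adjusted p = 0.0102) and Serpinf2, the plasmin inhibitor, fell by 0.86 on the log2 scale (adjusted p = 1.81e-04; detected on 7 wildtype arrays and 1 knockout array). Urokinase itself, Plau, gave 0.35 ± 0.20 (adjusted p = 0.190). Of 6 genes for Mmp activation and binding, Lcn2, an iron-carrier binding protein that forms a complex with Mmp9 in humans, rose (1.22 ± 0.24, adjusted p = 0.00100). The Mmp substrate Spp1 gave 1.57 ± 0.58 (adjusted p = 0.0513) and the convertase Furin, which activates Mmp14, 0.31 ± 0.12 (adjusted p = 0.0595).

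Of 6 sheddase cofactors, Tspan17, a tetraspanin that traffics Adam10 (0.53 ± 0.13, adjusted p = 0.00449), and Rhbdf1, an iRhom that traffics Adam17 (0.28 ± 0.10, adjusted p = 0.0416), rose. Of 11 tested substrates 5 rose and 0 fell. The 4 with the smallest p were Tnf (0.96 ± 0.19, adjusted p = 0.00139), the chemokine Cxcl16 (0.57 ± 0.12, adjusted p = 0.00213), the EGF receptor ligand Areg (0.64 ± 0.15, adjusted p = 0.00433) and the syndecan Sdc1 (0.51 ± 0.12, adjusted p = 0.00491). Notch1 gave 0.01 ± 0.17 (adjusted p = 0.985).

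Of 7 tested other proteases, which include the brush border meprins and cathepsins, the lysosomal cathepsin Ctss rose (0.65 ± 0.17, adjusted p = 0.00851). The meprin subunits Mep1a and Mep1b gave 0.81 ± 0.52 and -0.21 ± 0.29 (adjusted p = 0.256 and 0.625). Of 9 AP-1 and ETS factors, Ets1 (0.58 ± 0.15, adjusted p = 0.00750) and Junb (0.51 ± 0.17, adjusted p = 0.0318) rose, while Fos gave 0.15 ± 0.16 and Jun 0.22 ± 0.14 (adjusted p = 0.505 and 0.261).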

How the data were processed

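RNA from small intestine of 8 wildtype and 8 knockout mice was measured on Illumina bead arrays, 8 arrays on each of 2 slides with 4 per group. The deposited intensity of each probe is not normalized, and a detection p-value stands beside it, per the file headers. A deposited series table of linear intensity, whose columns keep each array's rank order and have medians of 158.5 to 159.0, served as an alternative. The scanner and its software are not named by the labels or headers.

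With limma 3.58.1 in R 4.3.3, intensities were corrected by normexp (offset 16), which shrinks the differences of dim probes, then quantile normalized and converted to log2. Probes with a detection p under 0.05 on at least 6 of 16 arrays were tested one by one (lmFit, eBayes, genotype as the only term), without merging the probes of a gene. The procedure was tested on simulated intensities. Array correlations of 0.906 to 0.988 gave no duplicates.

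The members, gene lists and cell sources were chosen with earlier results of these data known. Genes were named by rule: every member probe past the threshold and every other tested probe of those genes, every tested Mmp and Timp probe, Adam10 and Adam17, and up to 4 genes per partner list by smallest p; values of other genes were chosen after they were seen. Of the 69 symbols, 68 are current in RefSeq. Replicates were taken as separate mice, as the design text calls them.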

Additional observations from a re-analysis of the deposited data

Results flagged for a closer look

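Single arrays far from the rest of their group were looked for among the 32 probes of named genes, in 64 groups of 8 arrays by Dixon's ratio, and 4 were found. Chance alone flags about 1 in 20 groups. Adam17 on knockout array 3 was at 8.91, below the nearest knockout array at 9.27. The first Adam8 probe on wildtype array 1 was at 6.23, the one wildtype array on which it was detected, and the next was at 5.68. Mmp17 on knockout array 6 was at 5.58 and the nearest other at 7.12. Timp4 on knockout array 1 was at 8.16 and the next at 6.14. The last 2 arrays are the extremes of their group in adipocyte markers (6.77 on array 6 and 12.34 on array 1). The part of those markers was not tested.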

How the results depend on the processing

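The 19 probes past the threshold were refitted under up to 31 alternatives each (582 fits in all). Of these fits 541 kept the direction and the call, 41 lost the call and 0 turned the direction. Most losses came from fitting 8 arrays of 1 slide, which left 4 higher and 1 lower on the first slide and 4 higher and 2 lower on the second (fewer arrays by construction). Leaving out 1 array gave 16 to 22 higher, 2 to 3 lower and medians of 0.32 to 0.58. Without the detection filter the median of all 99 probes was 0.065, since undetected probes enter it. Scaling to the 75th percentile gave 15 higher and 2 lower. Same-numbered arrays of the groups deviated together only in part (correlations from -0.23 to 0.38), so the numbers were not taken as pairs; a replicate block gave 20 higher and 3 lower, against 17 and 2.

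Probes near 0 turned direction without passing. Mmp13's probe detected on 10 arrays was -0.10 on the first slide alone, -0.0036 without wildtype arrays 2 and 5 (a setting chosen after the data were seen, as was leaving out knockout arrays 1 and 6), and -0.0045 to 0.080 with 1 array left out, below 0 without wildtype array 5 or knockout array 6. Adam17 was 0.19 on the second slide alone, and -0.10 to 0.010 with 1 array left out, above 0 without wildtype array 4 or knockout array 3. Mmp1a ranged from -0.13 to 0.025, above 0 without wildtype array 3 or 4 or knockout array 4 or 8, and Mmp17 from -0.34 to 0.018, above 0 without knockout array 6. The cause was not tested. Signal near background limits Adam28, Timp4 and the dim probes of Adam8, Mmp13 and Timp3.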

Other observations

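Of the 16 probes with some detections that did not reach the test, a few are given here as counts of arrays. A probe of Adam29, a gene of the testis, was detected on 3 wildtype and 0 knockout arrays (means 5.76 and 5.71). The other Adam29 probes were detected on 0 arrays. Mmp11, stromelysin 3, was detected on 3 wildtype arrays and 1 knockout array, and Adamts17 on 0 and 2. Adam24 and Adamts8 were each detected on 3 and 2.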
